A study of Mus musculus with 3 samples.

Results

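The 9 Pax genes (Pax1 to Pax9) were described in mouse embryonic stem cells (ESCs) as they appear in lists of chromatin regions enriched for the histone variant H2A.Z or for H3K27me3, trimethylation of lysine 27 on histone H3. Members were taken by gene symbol from the GENCODE vM1 annotation of the mm9 mouse genome, where they are 9 of 22367 protein-coding genes and carry 63 distinct transcript starts on 82 transcripts. Each start was examined with 2 kb on each side, and each gene with 10 kb of flank. ChIP-Seq had been performed on 3 libraries, 1 per group. H2A.Z WT is wild-type H2A.Z and H2A.Z AP3 is H2A.Z with 3 residues of its extended acidic patch, a charged surface of the nucleosome, replaced by those of canonical H2A. Both were fused to YFP, driven from a CMV promoter by a doxycycline-inducible rtTA system in lentivirally infected KH2 ESCs sorted for YFP, with endogenous H2A.Z depleted by short hairpins against its 3′ untranslated region, and both were immunoprecipitated through the tag with the same anti-GFP antibody. The H3K27me3 library is labelled wild type and came from an antibody against the mark. The strain label of all 3 samples is V6.5, a 129SvJae and C57BL/6 line, although the transgenic lines are described as KH2. Cells were grown on irradiated fibroblasts and passaged without them for the final passage, and no time of induction is given in the sources used here.

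Pax proteins are transcription factors that bind DNA through a paired box domain and specify organs and cell lineages in the embryo. They fall into subfamilies I (Pax1 and Pax9), II (Pax2, Pax5 and Pax8), III (Pax3 and Pax7) and IV (Pax4 and Pax6), and act in several tissues with proteins of the Eya and Dach families and their homeodomain partners. In ESCs, genes of this kind are known to be held inactive under H3K27me3, which is placed by Polycomb repressive complex 2, and H2A.Z is known to occupy the promoters of many of the same genes.

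Each library was represented by a pair of region lists, called by the authors at thresholds of 1e-9 and 1e-12. The lists give the start and end of each region on a grid of 25 bp and no height, so every value below counts genes, regions or covered bases. At 1e-9 they held 78359 regions over 28.3 Mb for H2A.Z WT, 14599 over 3.50 Mb for H2A.Z AP3 and 16970 over 9.32 Mb for H3K27me3. How many reads each list rests on is unknown, and depth, antibody and occupancy cannot be told apart in the number of regions called. With 1 library per group there was no replicate error and no test was possible, so counts of called genes are given beside the share over all protein-coding genes. Values are from the 1e-9 lists unless the other is named. The regions hold no RNA level, so the cell type could not be checked from them. Calls at the starts of marker genes do not measure expression and are given as a description only. H2A.Z WT and H3K27me3 each had a region at 1 of 8 ESC marker genes, Esrrb in both, and H2A.Z AP3 had none, while the starts of fibroblast marker genes were called by H2A.Z WT at 6 of 6, by H2A.Z AP3 at 3 of 6 and by H3K27me3 at 4 of 6. Over all protein-coding genes the shares were 61.6%, 23.2% and 18.2%.

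Sequences upstream of Pax4 and Pax7 are given because these genes stood at opposite ends of H3K27me3 coverage among the 9 over the merged windows of all starts. Each run is the 200 bases before the most upstream start, from the mm9 genome, 5′ to 3′ on the strand of the gene, with CpG dinucleotides in capitals.
Pax4 upstream (chr6:28399354-28399553, minus strand): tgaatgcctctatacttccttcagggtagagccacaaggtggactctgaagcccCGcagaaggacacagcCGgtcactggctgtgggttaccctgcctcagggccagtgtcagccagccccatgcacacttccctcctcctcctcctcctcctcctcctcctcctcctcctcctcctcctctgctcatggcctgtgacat
Pax7 upstream (chr4:139389446-139389645, minus strand): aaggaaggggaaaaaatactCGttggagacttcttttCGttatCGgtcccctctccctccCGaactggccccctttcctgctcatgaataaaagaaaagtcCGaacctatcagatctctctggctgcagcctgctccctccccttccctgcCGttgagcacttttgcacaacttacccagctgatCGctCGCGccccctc

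The Pax4 run held 2 CpG dinucleotides and the Pax7 run held 9. The median over all protein-coding genes was 7.00 in the same 200 bases, and that over the Pax genes was 10.0. Within 500 bp of the most upstream start, CpG dinucleotides numbered 71 at Pax2, 57 at Pax3 and at Pax7, 50 at Pax9, 44 at Pax6, 41 at Pax1 and at Pax5, 18 at Pax8 and 3 at Pax4, against a median of 41.0 over all genes. Pax4 and Pax8 were thus the CpG-poor members, with 2.74% and 32.2% of genes below them.

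The 4 further sequences are among those covered by the acidic patch mutant, which covered few bases at these genes. They comprise the H2A.Z AP3 regions upstream of the most upstream starts of Pax9 and Pax6 from the 1e-9 list, and the H2A.Z AP3 region in an intron of Pax7 from the 1e-12 list, which lay far from H3K27me3. All are from mm9 on the strand of the gene, with CpG dinucleotides in capitals.
Pax9 AP3 region (chr12:57792501-57792750, plus strand): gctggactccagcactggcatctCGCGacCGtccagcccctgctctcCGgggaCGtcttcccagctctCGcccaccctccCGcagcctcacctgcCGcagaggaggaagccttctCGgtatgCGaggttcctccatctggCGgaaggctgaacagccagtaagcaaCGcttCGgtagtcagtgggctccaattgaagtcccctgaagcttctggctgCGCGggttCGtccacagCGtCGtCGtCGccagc
Pax6 AP3 region nearer the start (chr2:105508576-105508650, plus strand): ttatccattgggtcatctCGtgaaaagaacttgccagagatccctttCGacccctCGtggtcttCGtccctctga
Pax6 AP3 region farther from the start (chr2:105507951-105508075, plus strand): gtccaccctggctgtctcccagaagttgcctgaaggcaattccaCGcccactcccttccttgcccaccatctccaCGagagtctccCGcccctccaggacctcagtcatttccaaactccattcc
Pax7 intronic AP3 region (chr4:139361101-139361375, minus strand): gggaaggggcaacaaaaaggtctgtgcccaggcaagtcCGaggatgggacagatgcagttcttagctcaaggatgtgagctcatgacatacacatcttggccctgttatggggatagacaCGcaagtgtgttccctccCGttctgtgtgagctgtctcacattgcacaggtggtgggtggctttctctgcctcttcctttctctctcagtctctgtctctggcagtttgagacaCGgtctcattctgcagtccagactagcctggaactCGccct

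The Pax9 run held 20 CpG dinucleotides in 250 bp. Those of Pax6 held 4 in 75 bp and 3 in 125 bp, and that of Pax7 held 5 in 275 bp. The observed number of CpG dinucleotides was 0.785 of that expected from base composition at Pax9 and 0.255 at Pax7, so these mutant regions differed in CpG content.

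All 9 Pax genes had an H2A.Z WT region within 2 kb of a start, where 61.6% of all protein-coding genes did. All 9 had an H3K27me3 region there, against 18.2% of all genes, and 17.3% of all genes had both. H2A.Z AP3 was called at 3 of 9, Pax6, Pax8 and Pax9, against 23.2% of all genes and 45.7% of the 3864 genes with H2A.Z WT and H3K27me3 at a start. In the 1e-12 lists, H2A.Z WT and H3K27me3 were again called at 9 of 9 (60.0% and 15.7% of all genes), while H2A.Z AP3 was called at 2 of 9, Pax1 and Pax9 (18.8% of all genes and 37.1% of those with both others). Pax9 was thus the member with H2A.Z AP3 at a start in both lists.

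Coverage was also counted in bases. The windows around the 63 starts spanned 95097 bp, of which H3K27me3 regions covered 50839 bp (53.5%), H2A.Z WT regions 20813 bp (21.9%) and H2A.Z AP3 regions 700 bp (0.736%). H2A.Z AP3 bases therefore came to 3.36% of H2A.Z WT bases, where this share was 14.3% over the starts of all protein-coding genes and 12.9% over those of genes with H2A.Z WT and H3K27me3. In the 1e-12 lists it was 2.20% at the Pax genes, 11.7% over all genes and 10.1% over the genes with H2A.Z WT and H3K27me3. H2A.Z AP3 was called at a start of 43.6% of genes on chromosome 6 and 50.3% on chromosome 8, against 5.47% to 24.9% on the other chromosomes. Pax4 is the member on chromosome 6 and none is on chromosome 8. Without those chromosomes, H2A.Z AP3 was at a start of 41.6% of the genes with H2A.Z WT and H3K27me3, and its bases were 9.49% of H2A.Z WT bases there. Of the members off chromosome 6, H2A.Z AP3 was at 3 of 8, a share close to that background.

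**Figure D1:**
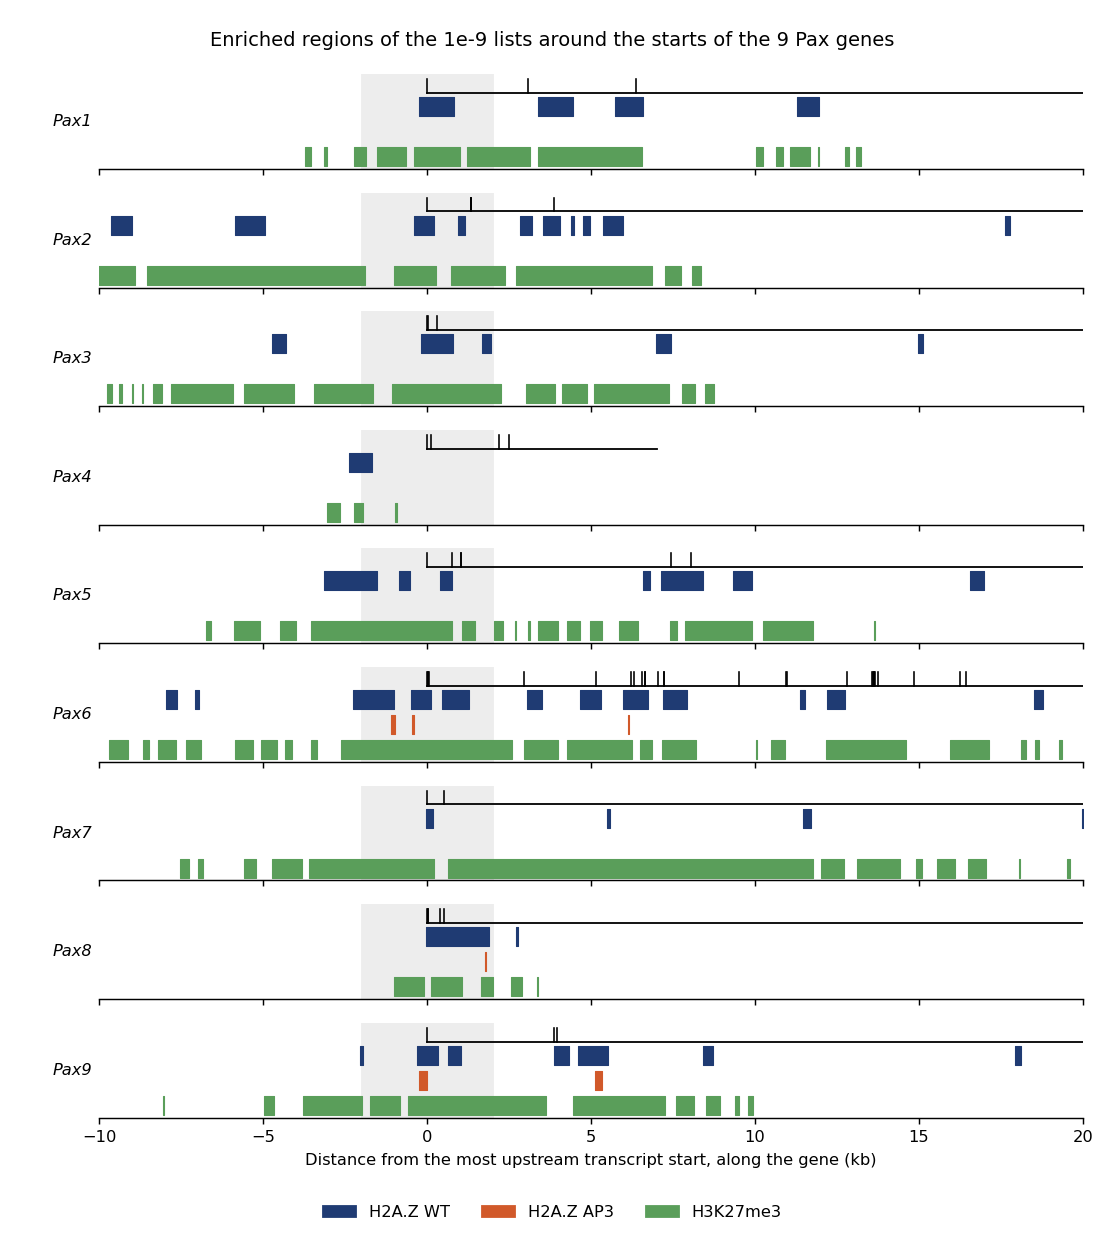
Enriched regions of the 1e-9 lists from 10 kb upstream to 20 kb downstream of the most upstream transcript start of each Pax gene, drawn along the direction of transcription. Black ticks are annotated transcript starts, the black line is the gene, the grey band is 2 kb each side of the most upstream start, and bars are regions of each library. H3K27me3 filled 100% of the grey band at Pax6 and 3.20% at Pax4, and H2A.Z AP3 was present in the band at Pax6, Pax8 and Pax9.

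Subfamily I was covered broadly at all of its starts. Pax1, which acts in the sclerotome that forms the vertebrae, had 2975 bp of H2A.Z WT (28.7% of its windows), 7515 bp of H3K27me3 (72.6%) and no H2A.Z AP3 base. Pax9, which is needed for teeth, thymus and parathyroid, had 2447 bp (30.7%), 6663 bp (83.7%) and 450 bp (5.65%). Its H2A.Z AP3 bases were 18.4% of its H2A.Z WT bases, the highest share among the 9 genes. The members of this subfamily thus had close values in both other libraries, and H2A.Z AP3 was called at Pax9 and not at Pax1. In the 1e-12 list it was called at both, and Pax1 had 200 bp of H2A.Z AP3 and Pax9 had 150 bp. The Pax1 region (chr2:147191476-147191675) lay 746 bp downstream of the start at 147190730, touched an exon, fell whole inside H2A.Z WT and H3K27me3 regions, and shared no base with the 1e-9 list, in which the nearest H2A.Z AP3 base was 177685 bp from the most upstream Pax1 start.

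At Pax9 the H2A.Z AP3 regions were the 250 bp printed above, which ended 4 bp before the most upstream start, and 200 bp at chr12:57797876-57798075, 1160 bp downstream of the start at 57796716. Both lay whole inside H2A.Z WT and H3K27me3 regions. In the 1e-12 list they were reduced to 125 bp and 25 bp. The upstream region sits inside Gm15524, a processed transcript on the same strand whose start is 1849 bp from that of Pax9, and the start of Pax1 has a similar neighbour in AI646519, an antisense processed transcript 484 bp away. Which of the neighbouring starts a region belongs to cannot be told apart.

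In subfamily II, Pax2 and Pax5 were covered by H2A.Z WT and H3K27me3 at most starts without the mutant, and Pax8 chiefly at its upstream starts. Pax2, which directs kidney and optic development, had 2458 bp of H2A.Z WT at its starts (31.2%, the highest share of the 9), 6195 bp of H3K27me3 (78.7%) and no H2A.Z AP3. Pax5, the commitment factor of B lymphocytes, had 3243 bp (23.8%), 6318 bp (46.3%) and none. Its starts were not alike: H2A.Z WT covered 2100 bp around the start at 44716285, 1143 bp around the most upstream one at 44724318 and nothing around that at 44696687, which had no H3K27me3 either. Pax8, required for the thyroid, had 1975 bp of H2A.Z WT (15.8%), 2200 bp of H3K27me3 (17.6%) and 25 bp of H2A.Z AP3 (0.200%). These low shares came from 2 internal starts of noncoding transcripts far downstream, around which H2A.Z WT covered 0 and 50 bp. At its most upstream start Pax8 was next to Pax6 in H2A.Z WT share, at 48.1%, from a single region of 1925 bp that began 31 bp upstream and ran into the gene. H3K27me3 covered 55.0% of the same window. The H2A.Z AP3 call there was 1 bin of 25 bp, 1769 bp downstream of the start, and was absent from the 1e-12 list.

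Subfamily III had the highest H3K27me3 shares of the start windows, with unequal H2A.Z WT. Pax3, a factor of neural crest and of muscle precursors, had 1250 bp of H2A.Z WT (29.1%) and 3684 bp of H3K27me3 (85.7%). Pax7, which marks muscle satellite cells, had 200 bp (4.42%) and 4099 bp (90.6%), the lowest H2A.Z WT share and the highest H3K27me3 share of the family. Neither had an H2A.Z AP3 base at a start in either list. The single H2A.Z WT region at Pax7 lay across the most upstream start, with 30 bp before it and 169 bp in the first 1 kb after it. Of all protein-coding genes, 44.0% had fewer H2A.Z WT bases at their starts than Pax7, and 99.5% had fewer H3K27me3 bases.

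Subfamily IV held the most and the fewest H3K27me3 bases at starts among the 9, at Pax6 and Pax4. Pax6, the regulator of eye and forebrain, has 29 annotated starts, and had 5937 bp of H2A.Z WT (21.6%), 14037 bp of H3K27me3 (51.1%) and 225 bp of H2A.Z AP3 (0.819%). A single protein-coding gene had more H3K27me3 bases at its starts than Pax6, and 18 had more H2A.Z WT bases. Bases add up over windows, so this rank rests partly on the number of starts, but at its most upstream start alone H3K27me3 covered 100% of the window and H2A.Z WT 61.2%, both the highest of the 9. Pax4, which acts in pancreatic beta cells, had 328 bp of H2A.Z WT (5.05%), 128 bp of H3K27me3 (1.97%) and no H2A.Z AP3. Its H2A.Z WT region of 725 bp (chr6:28401026-28401750) ended 1673 bp upstream of the most upstream start, so it was called by the edge of that region. With windows of 1 kb each side, H2A.Z WT was called at 8 of 9 members, and with at least 200 bp required, H3K27me3 was called at 8 of 9.

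The H2A.Z AP3 regions at Pax6 were small. Those printed above lay 403 bp and 978 bp upstream of the most upstream start, and another of 25 bp (chr2:105515176-105515200) lay 66 bp upstream of the internal start at 105515266. All fell inside H3K27me3 regions, and none had a base in the 1e-12 list. The antisense transcript Pax6os1 starts 1345 bp from a Pax6 start, and 75 bp of H2A.Z AP3 lay within 2 kb of its own starts.

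**Figure D2:**
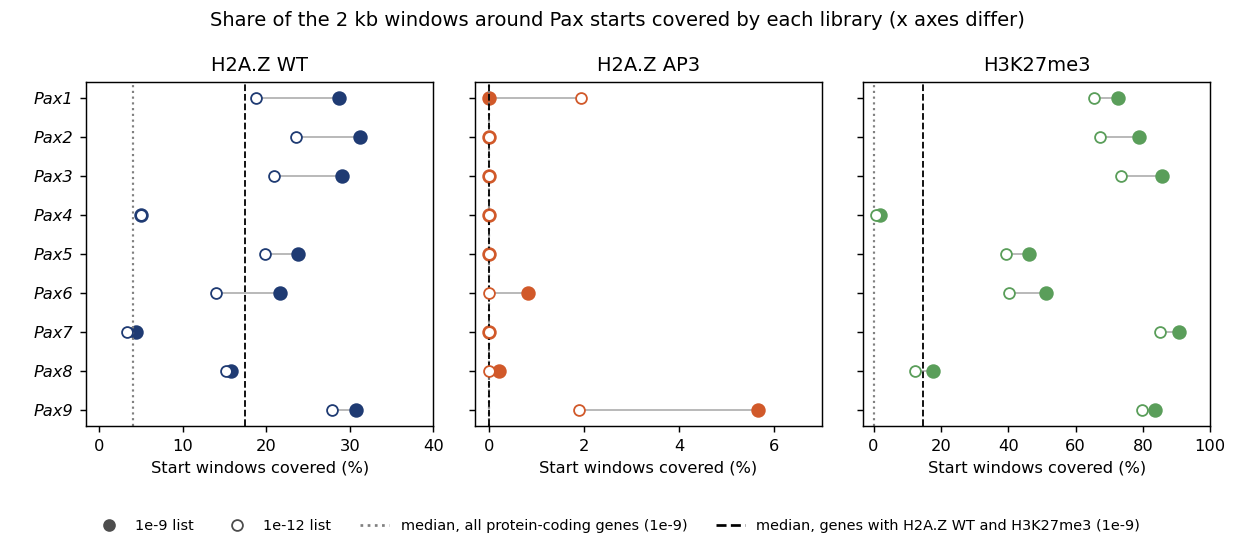
Percent of the 2 kb windows around all starts of each Pax gene that was covered by regions of each library (x axis, scale differs by panel), for the 1e-9 list (filled) and the 1e-12 list (open). Dotted lines are the 1e-9 medians over all protein-coding genes (4.11%, 0% and 0%) and dashed lines those over genes with H2A.Z WT and H3K27me3 (17.5%, 0% and 14.6%). Pax4 and Pax7 were low in H2A.Z WT, and Pax4 and Pax8 were low in H3K27me3.

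Ordered by the H3K27me3 share of the start windows, the genes ran Pax7, Pax3, Pax9, Pax2, Pax1, Pax6, Pax5, Pax8 and Pax4, from 90.6% to 1.97%. Ordered by H2A.Z WT, they ran Pax2, Pax9, Pax3, Pax1, Pax5, Pax6, Pax8, Pax4 and Pax7, from 31.2% to 4.42%. Pax7 was first in one order and last in the other. Without replicates, no difference between genes in either order, near or far apart, has an error estimate. The family medians were 23.8% for H2A.Z WT and 72.6% for H3K27me3, against 17.5% and 14.6% over the genes with both and 4.11% and 0% over all genes. For the window of the most upstream start alone they were 26.9% and 80.0%, against 23.1% and 21.7% over the genes with both. The family thus stood farther from other genes with both features in H3K27me3 than in H2A.Z WT.

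**Figure D3:**
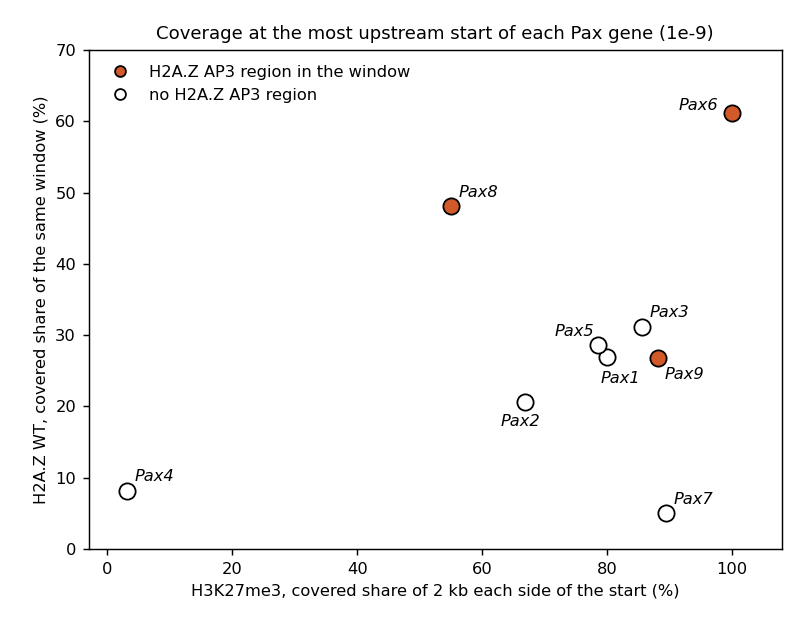
Share of the window 2 kb each side of the most upstream start that was covered by H3K27me3 (x axis) and by H2A.Z WT (y axis) in each Pax gene, 1e-9 lists, with genes that had an H2A.Z AP3 region in the window filled. Pax6 was highest in both at 100% and 61.2%, Pax4 lay at 3.20% and 8.20%, and Pax7 combined 89.4% with 5.00%.

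Around the most upstream start, the profile of H2A.Z WT over the family was highest next to the start. There 77.8% of the Pax genes were covered in each 25 bp bin centred from -13 bp to 112 bp. Over the genes with both features the H2A.Z WT profile was highest 287 bp downstream, at 61.3%. H3K27me3 covered 44.4% or more of the Pax genes in every bin of the window and 100% of them in the bins centred from -988 bp to -938 bp. The highest value over the genes with both features was 43.3%, at 987 bp downstream. H2A.Z AP3 never exceeded 11.1%, which is 1 gene of 9, and was highest over all genes at 187 bp downstream, at 5.18%. With 9 genes each step of the family profile is 1 gene, and its fine shape has no error estimate.

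**Figure D4:**
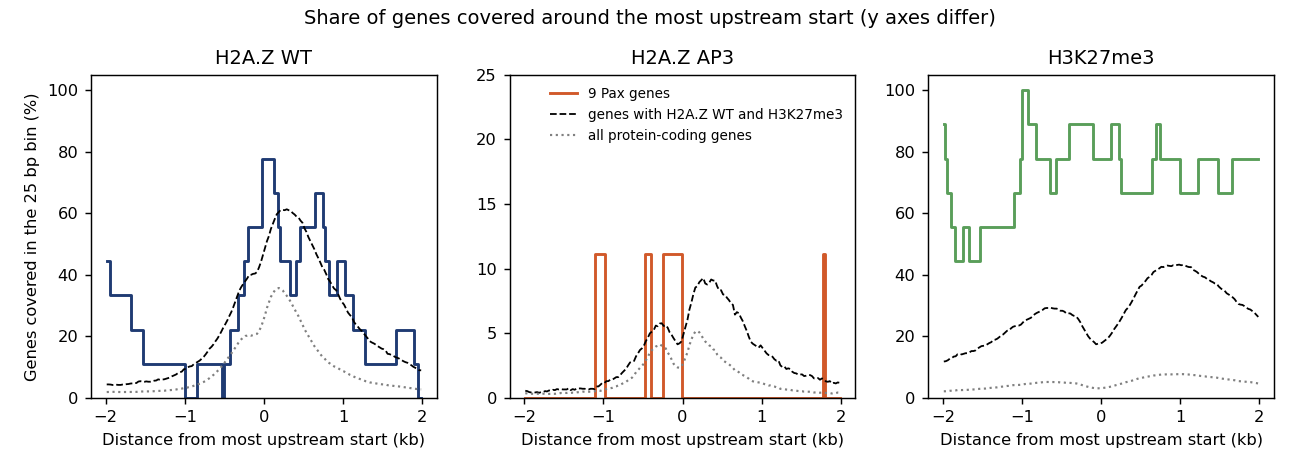
Percent of genes covered by a region in each 25 bp bin from 2 kb upstream to 2 kb downstream of the most upstream start (x axis in kb), for the 9 Pax genes (coloured line), the genes with H2A.Z WT and H3K27me3 at a start (dashed) and all protein-coding genes (dotted), 1e-9 lists, with a different y axis in each panel. H3K27me3 covered between 44.4% and 100% of the Pax genes in every bin, above both other lines.

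H2A.Z WT at Pax starts lay mostly inside H3K27me3. Of its 20813 bp, 17938 bp (86.2%) fell in H3K27me3 regions, and 98.8% fell in H3K27me3 domains formed by joining regions across gaps of up to 1 kb. H3K27me3 regions themselves covered 53.5% of the windows and such domains 69.9%, so much overlap follows from their breadth. No matching overlap over other genes is at hand, so it is not read as particular to the Pax genes. In the other direction, 35.3% of H3K27me3 bases lay in H2A.Z WT regions, a share that was 4.88% at Pax7 and 54.5% at Pax8. All 700 bp of H2A.Z AP3 lay in H3K27me3 regions and 675 bp of them in H2A.Z WT regions. Mutant regions at Pax starts thus shared coordinates with H3K27me3 and H2A.Z WT regions, apart from 25 bp at Pax6 that extended past the H2A.Z WT region. The overlap is between separate libraries. The H3K27me3 library is labelled wild type, so it does not measure the mark in the mutant cells.

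The joined H3K27me3 domains at these genes were long. The longest were 23650 bp at Pax7 and 23125 bp at Pax2, where the median over 8348 domains of the genome was 650 bp and 14 and 17 domains were longer. Those of Pax5 (18525 bp), Pax3 (18500 bp), Pax9 (14925 bp), Pax6 (14075 bp) and Pax1 (10275 bp) followed. Pax8 had a domain of 4375 bp, and the Pax4 domain of 2125 bp lay upstream and held none of its starts. H2A.Z WT filled 28.5% to 45.7% of the domains of Pax4, Pax8, Pax1 and Pax6, the shortest of the 9, and 2.33% (Pax7) to 23.8% (Pax5) of the longer ones. The longest single H3K27me3 region was also at Pax7, with 11125 bp (chr4:139377676-139388800) from 645 bp downstream of the most upstream start.

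Over the genes with 10 kb of flank, all 9 members held H2A.Z WT and H3K27me3 (75.0% and 24.9% of all genes) and 6 of 9 held H2A.Z AP3 (39.2% of all genes). These calls depend on length, since 1 bp anywhere is enough. Pax2, Pax5 and Pax7, called here and not at a start, spanned 102, 200 and 116 kb with flank, while Pax3, with 116 kb, held none. The median share covered by H2A.Z AP3 was 0.122% in the members, against 0.141% over genes with H2A.Z WT and H3K27me3 at a start. The genes with flank held 119 H2A.Z WT regions, of which 34 were within 2 kb of a start, 63 in introns, 8 at exons, and 8 and 6 in the upstream and downstream flanks. The intronic regions were concentrated in the long genes, with 30 in Pax5, 19 in Pax7 and 9 in Pax2. Of the 119, 48 overlapped H3K27me3 (40.3%, Wilson 95% interval 32.0% to 49.3%) and 10 overlapped H2A.Z AP3 (8.40%, 4.63% to 14.8%). These intervals cover counting error only, and regions of 1 gene are not independent. No matching shares over all H2A.Z WT regions of the genome are at hand, so neither share is read as particular to the Pax genes. The H2A.Z WT regions with H3K27me3 had a median length of 525 bp and the 71 without it 200 bp. The longest H2A.Z WT region was the 1925 bp at the Pax8 start. The longest in Pax5 was 1700 bp in an intron (chr4:44550526-44552225), with no H3K27me3 base, and the longest in Pax2 was 1400 bp at its 3′ end (chr19:44909251-44910650), near the start of the processed transcript 1700039E22Rik.

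**Figure D5:**
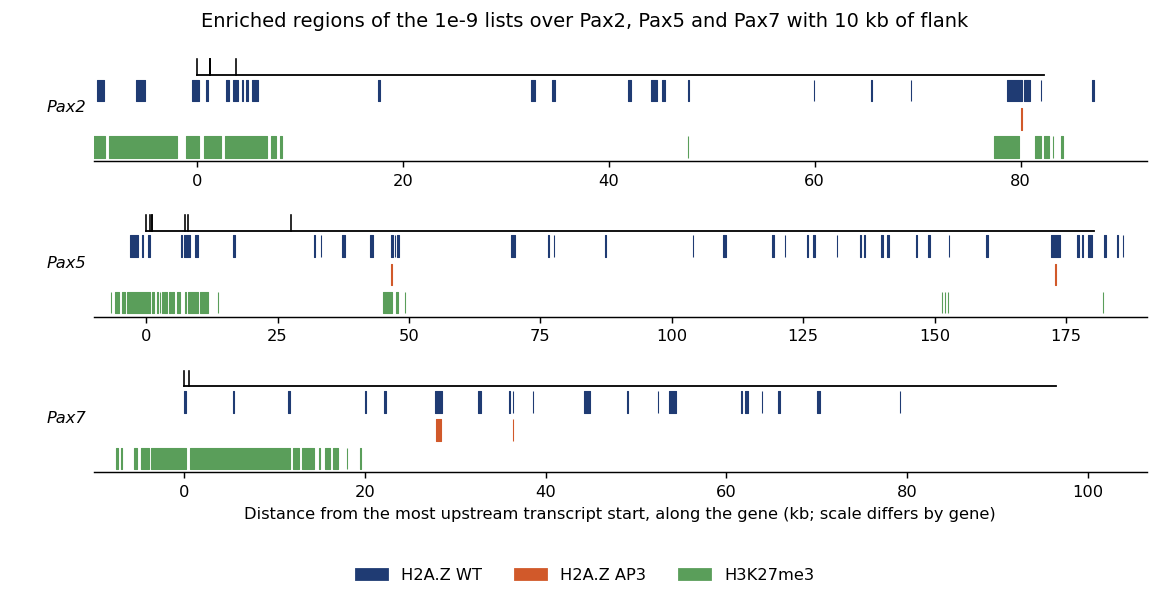
Enriched regions of the 1e-9 lists over Pax2, Pax5 and Pax7 with 10 kb of flank, by distance in kb from the most upstream start along the direction of transcription (scale differs by gene), with starts as ticks and the gene as a black line. H2A.Z WT regions, 23 at Pax2, 40 at Pax5 and 20 at Pax7, ran through the genes, whereas H3K27me3 gathered at the starts, at the 3′ end of Pax2 and around one intronic site of Pax5.

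Of the 11 H2A.Z AP3 regions of the 1e-9 list in these genes, 6 were near the starts of Pax6, Pax8 and Pax9, and the others lay in the bodies of Pax2, Pax5 and Pax7. The largest was 475 bp in an intron of Pax7 (chr4:139361051-139361525), whole inside an 825 bp H2A.Z WT region and 8325 bp from the nearest H3K27me3 region. The 275 bp of it that remained in the 1e-12 list are printed above. The other Pax7 region of 25 bp (chr4:139353051-139353075) shared no base with an H2A.Z WT region but directly adjoined one of 25 bp (chr4:139353076-139353100). Pax5 had 200 bp (chr4:44677576-44677775) inside H2A.Z WT and H3K27me3, next to the start of the processed transcript Gm12462, and 50 bp (chr4:44551326-44551375) inside its longest H2A.Z WT region. At Pax2 the region was 125 bp (chr19:44910526-44910650), touched an exon, and lay within the 1400 bp H2A.Z WT region. In all, 10 of the 11 overlapped H2A.Z WT, 7 overlapped H3K27me3, and 7 had no base in the 1e-12 list. These counts too have no matching shares over all H2A.Z AP3 regions beside them, and describe these regions only. The mutant regions kept under the stricter threshold were those of Pax9, the Pax5 region near Gm12462 and the larger Pax7 region. The other small annotated genes lying inside these genes or flanks, Gm14109, Gm20395, Gm19980, AL772319.1, Gm13954 and AL732528.1, had no H2A.Z AP3 base within 2 kb of their starts.

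Genes that act with or downstream of Pax proteins were examined in the same way. Of 12 genes of these partner proteins, H2A.Z WT was at a start of 11, H3K27me3 of 7 and H2A.Z AP3 of 3, where the shares over all genes were 61.6%, 18.2% and 23.2%, so the H2A.Z AP3 count was near the background. H2A.Z AP3 bases were 3.90% of H2A.Z WT bases there, against 3.36% at the Pax genes and 14.3% over all genes. By share of the start windows, H3K27me3 was highest at Six3 (94.5%), a regulator of eye and forebrain development, and Six4 had no H2A.Z WT or H3K27me3 region. Of 18 genes known as targets of Pax proteins, H2A.Z WT was at 13, H3K27me3 at 8 and H2A.Z AP3 at 5, and H2A.Z AP3 bases were 7.72% of H2A.Z WT bases. Against the same shares over all genes, both H2A.Z counts of these targets were near the background. Among them the neurotrophic factor gene Gdnf had the highest H3K27me3 share (80.6%) and the neurogenic factor gene Neurog2 the highest H2A.Z WT share (33.1%). The T-box genes, another family of developmental transcription factors, had H2A.Z WT at 15 of 16, H3K27me3 at 12 and H2A.Z AP3 at 9, and there H2A.Z AP3 bases were 17.1% of H2A.Z WT bases. Between the families, H2A.Z AP3 was thus at 3 of 9 Pax genes and at 8 of the 12 T-box genes with H2A.Z WT and H3K27me3, set against 45.7% over all such genes, and with 1 library the difference has no test. Over all genes of each family, without asking for the other features, H2A.Z AP3 was at 3 of 9 Pax genes and 9 of 16 T-box genes, against 23.2% of all genes. In the 1e-12 lists these counts were 2 of 9 and 5 of 16, against 18.8% of all genes.

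The gene whose covered bins around the most upstream start were most like those of each member was sought over the 3 libraries and all other protein-coding genes, with the Jaccard index, the bins covered in both as a share of those covered in either. It was Hoxb9 for Pax7 (0.907), Cyp24a1 for Pax3 (0.800), D430041D05Rik for Pax1 (0.769), Gcgr for Pax6 (0.768), Gfra1 for Pax8 (0.761), Ppp1r1b for Pax9 (0.756), 5730596B20Rik for Pax2 (0.712) and Foxa2 for Pax5 (0.704). The next gene was nearly as alike for some members, at 0.756 for Pax9, 0.710 for Pax2 and 0.764 for Pax1. It was farthest behind for Pax7, at 0.805. The index pools the bins of all 3 libraries, so the library with the most covered bins weighs most. Pax4 had 18 covered bins, too few for the measure. No member was most like another Pax gene, but very few of the genes compared were Pax genes. The most alike Pax gene ranked from 12 (for Pax1) to 104 (for Pax8) among the other protein-coding genes. The closest pair within the family, Pax1 and Pax3, had an index of 0.721.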

How the data were processed

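The deposited files were, for each of the 3 ChIP-Seq libraries, a pair of lists of enriched regions with chromosome, start and end in bp and no other value. The authors aligned single-end Illumina reads to mm9 with Bowtie 0.12.3, extended them, binned them at 25 bp and called bins above a Poisson background and a fold over input, each library on its own. Their methods state the 1e-9 threshold only, which was therefore the main list. bedtools is named in the submitters' processing notes. Positions were printed counted from 1.

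Here, regions were joined to GENCODE vM1 genes and the mm9 genome with Python 3.11.15 and NumPy 2.4.6. A gene was called with at least 1 bp of a region in a window. Windows of 1 gene were merged before bases were counted. The interval code was tested on simulated regions. The members, gene lists and alternatives were chosen with earlier results of these data known. All 9 members are named with every list gene that was first or last by covered share, or called where a library called 3 or fewer of a list. Some genes that this rule would name are not reported here. Neighbours are named where a start lies within 2 kb of a Pax start or the body lies in the flank, and regions as the longest per library and gene and every H2A.Z AP3 region. Alternatives were the 1e-12 lists, their union with the 1e-9 lists, other windows, flanks and starts, and minimum lengths. Read depth is unknown, so no floor is given.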

Additional observations from a re-analysis of the deposited data

Results flagged for a closer look

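A stricter list would be a subset of the looser one if both came from the same calls. In the Pax genes with 10 kb of flank, 6 of the 103 H2A.Z WT regions in the 1e-12 list had no base in common with the looser list, which the comparisons above use. They covered 1750 bp, were 75 to 625 bp long, lay in Pax5, Pax6 and Pax7, and none was within 2 kb of a start. H2A.Z AP3 had 1 such region, of 200 bp, at Pax1, and H3K27me3 had 1 of 25 bp upstream of Pax7. Whether the lists were called with other settings was not tested.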

How the results depend on the processing

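Each of 12 results was recomputed under 65 alternatives in all. Of these, 46 gave a count within 1.5 times the reported one or a value within its 95% Wilson interval. For covered bases and the H2A.Z AP3 percent, that interval takes each base as independent, which neighbouring bases of a region are not. It is therefore too narrow there and measures no spread between libraries. The counts of Pax genes called at a start were 8 or 9 for H2A.Z WT and for H3K27me3, and for H2A.Z AP3 2 to 4, under every alternative run. In the 1e-12 lists, H2A.Z WT covered 15877 bases at the starts, H3K27me3 covered 43400 and H2A.Z AP3 covered 350, and the union of both lists gave 900 for H2A.Z AP3. H2A.Z AP3 bases as a percent of H2A.Z WT bases were 2.20% in the 1e-12 lists, 4.32% in the union, 2.38% with 1 kb and 2.92% with 5 kb each side, 3.93% with starts of protein-coding transcripts, 4.63% with the most upstream starts and 2.78% with regions of at least 100 bp. Without Pax6, which has the most starts, the percent was 3.19%, an alternative chosen after seeing the data. With 50 kb of flank there were 179 H2A.Z WT and 18 H2A.Z AP3 regions, and 30.7% of the former overlapped H3K27me3. Without flank there were 77 H3K27me3 regions, and joining across gaps of up to 1 kb left 26. The 1e-12 list held 5 H2A.Z AP3 regions. The share of H2A.Z WT regions with H2A.Z AP3 was 1.68% when at least 50% of the region had to be covered and 16.8% within 1 kb. No paired analysis was possible because each group has 1 library, and none could be left out. Shares and counts of region lists are limited by read depth, which is unknown.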
